A study of Mus musculus with 12 samples.

Results

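The genes described here are 9 genes of hepatic glucose metabolism, Pklr, Pkm, Pfkl, Pck1, Fbp1, Slc2a1, Slc2a2, Hk2 and Ppargc1a, among the 18193 genes that carried a single symbol on the array. They were matched by gene symbol, and where several probe sets carried the symbol, the one brightest on average across the 12 arrays stood for the gene. All 9 were measured. The rule that picks the probe set uses no difference between groups, whereas the genes themselves were proposed with results of these data known.

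The livers came from a study that asked what the liver-enriched long noncoding RNA lnc-LFAR1 does in fibrosis caused by carbon tetrachloride (CCl4), a hepatotoxin. Male Balb/c mice aged 8 weeks received intraperitoneal injections 3 times per week for 6 weeks, and were infected by tail vein with a lentivirus once 2 weeks of injections had passed. Total liver RNA was hybridized to Affymetrix Mouse Genome arrays, which read transcripts near their 3′ ends, 3 arrays per group, each labelled as a biological replicate and taken from groups of 10 mice. The 4 groups were NC (olive oil and the control virus Lenti-NC), NC+CCl4 (5% CCl4 in olive oil at 0.3 ml/kg and Lenti-NC), shLFAR1 (oil and Lenti-shLFAR1, which carries a short hairpin RNA against lnc-LFAR1) and shLFAR1+CCl4 (CCl4 and Lenti-shLFAR1). Every mouse therefore carried a lentivirus, and no group without virus was measured. The virus entered through the blood, so the hairpin was not restricted to a cell type by the design. The annotation used here gave no probe set the name lnc-LFAR1, so its level was not analysed here.

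Glycolysis breaks glucose down to pyruvate, and gluconeogenesis builds glucose from pyruvate, lactate, glycerol and amino acids. The liver does both, and hepatocytes hold their own forms of several enzymes: the transporter Slc2a2 (GLUT2), the phosphofructokinase Pfkl and the pyruvate kinase Pklr. Slc2a1 (GLUT1), Hk2 (hexokinase 2) and Pkm (muscle pyruvate kinase) are forms used outside hepatocytes, and they are known to be high in proliferating cells, macrophages and activated fibroblasts. Pck1 (cytosolic phosphoenolpyruvate carboxykinase) and Fbp1 (fructose-1,6-bisphosphatase) carry gluconeogenesis past the irreversible steps of glycolysis, and Ppargc1a (PGC-1α) is a coactivator known to raise their transcription in fasting.

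The start-site regions of the genes differ in the letters that the main regulators of these pathways are known to read. The following windows are the 250 bases before the start site, taken from the RefSeq table for GRCm38.p6, 5′ to 3′ on the strand of the gene. They are shown for the 4 genes that passed the test in NC+CCl4 against NC, with Pklr and Pkm represented by the second of their 2 start sites, since only those windows held a match. Capitals mark ACGTCA, the core of the cAMP response element, in Pck1 and Hk2. In Hk2 and Pkm they also mark ACGTG, the core of the hypoxia response element, read here as CACGT because it lies on the opposite strand. In Pklr they mark CACG and CGTG separated by 9 bases, the layout of a carbohydrate response element.
Pck1, chr2:173152823-173153072, plus strand: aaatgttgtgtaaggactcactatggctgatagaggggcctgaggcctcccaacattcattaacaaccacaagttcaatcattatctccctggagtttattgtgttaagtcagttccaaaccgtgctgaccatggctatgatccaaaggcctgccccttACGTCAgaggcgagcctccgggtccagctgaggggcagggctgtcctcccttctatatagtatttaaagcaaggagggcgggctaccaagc
Pklr, chr3:89136373-89136622, plus strand: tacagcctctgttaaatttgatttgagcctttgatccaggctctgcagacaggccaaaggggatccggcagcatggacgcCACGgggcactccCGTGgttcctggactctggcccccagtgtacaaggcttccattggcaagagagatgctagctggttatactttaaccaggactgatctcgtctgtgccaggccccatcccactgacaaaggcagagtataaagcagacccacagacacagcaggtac
Hk2, chr6:82774455-82774704, minus strand: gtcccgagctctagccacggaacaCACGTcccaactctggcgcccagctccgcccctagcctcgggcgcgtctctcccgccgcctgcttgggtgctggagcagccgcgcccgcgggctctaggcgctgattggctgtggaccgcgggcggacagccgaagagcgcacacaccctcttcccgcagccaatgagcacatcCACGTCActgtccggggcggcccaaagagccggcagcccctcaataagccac
Pkm, chr9:59656977-59657226, plus strand: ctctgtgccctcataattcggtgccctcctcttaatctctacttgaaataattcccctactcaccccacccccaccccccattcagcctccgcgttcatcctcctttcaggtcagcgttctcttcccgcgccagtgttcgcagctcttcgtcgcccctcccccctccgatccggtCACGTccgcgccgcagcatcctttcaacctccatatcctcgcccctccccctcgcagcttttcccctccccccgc

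The cAMP core of Pck1 lay 91 to 86 bases before its start site, and that of Hk2 lay 51 to 46 bases before. Among all 32851 windows of the same length, 6.47% held ACGTCA on either strand. ACGTG was found in 16.6% of them, and in Hk2 and Ppargc1a one of its matches overlapped the ACGTCA match. The paired motif, 170 to 154 bases before the second start of Pklr, occurred in 72 windows, or 0.219%. Slc2a1 held ACGTG 36 to 32 bases before its start and Ppargc1a held ACGTCA 50 to 45 bases before. No match was found in the windows of Fbp1, Pfkl and Slc2a2, which says only that these letters are not in these windows. The matches are descriptions of the sequence and no measure of binding.

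Of the 12 arrays, 2 stood apart, and results that rest on them are given with and without them. On the first principal component, which held 56.3% of the variance over all genes, NC and shLFAR1 arrays lay between -26.7 and -20.4 and NC+CCl4 arrays between 34.8 and 48.8. The shLFAR1+CCl4 arrays of replicates 1 and 2 lay at -6.8 and -9.7, but 39.2 was reached by replicate 3, inside the range of NC+CCl4. In the NC+CCl4 array of replicate 1 the difference between the 3′ and 5′ control probe sets of Gapdh was 0.72, against -0.21 to 0.03 in the other 11 arrays. The labels name a whole-transcript labelling kit although the probe sets of this platform lie near 3′ ends, so this difference is given only as measured. Hepatocyte markers were abundant in every array, with Alb at 14.26 to 14.47. All values here are log2 expression as deposited.

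In CCl4-treated livers under the control virus, 3 of the 9 genes were higher and 1 was lower, and 5 did not pass the test. Pkm rose 3.13-fold, Pklr 1.91-fold and Hk2 1.88-fold, and Pck1 fell 2.93-fold. These are calls of limma at an adjusted p under 0.05 over all genes, and in this comparison 13.1% of all genes were called in either direction, 7.66% as higher and 5.41% as lower. The NC and NC+CCl4 arrays did not overlap for 5 of the 9 genes (Pklr, Pkm, Pck1, Fbp1 and Hk2), and for 29.6% of all genes. The median change over the 9 genes was 0.31, beside -0.05 over all genes tested. Without both arrays that stand apart 5 genes were called, these 4 and Fbp1, and without NC replicate 1 or without NC replicate 2 only 1 was called, Pck1. In whole liver, fewer cells of a type and less RNA per cell cannot be told apart.

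**Figure D1:**
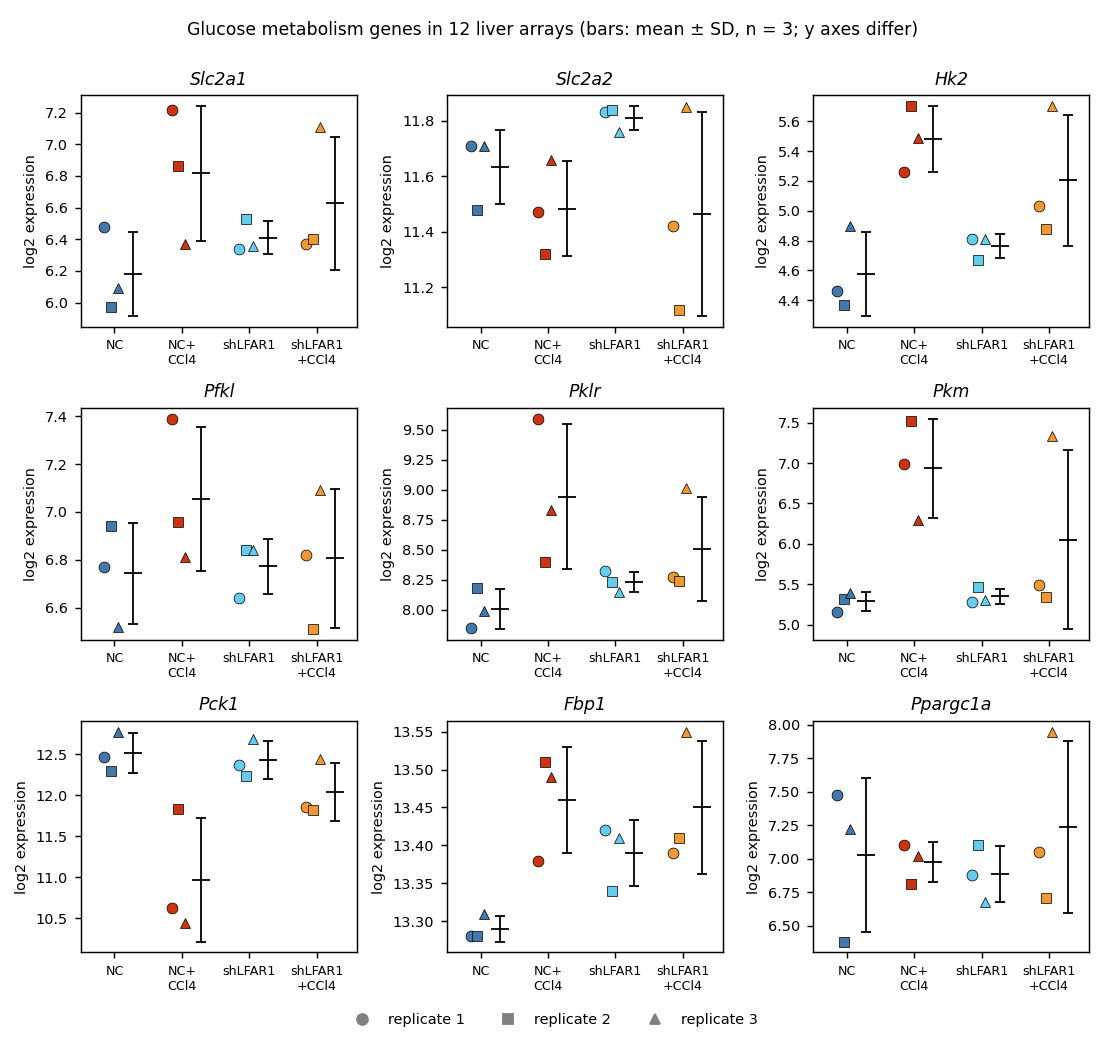
Log2 expression (y axis, a separate scale for each gene) of the 9 genes in the 12 arrays, by group; symbols are the replicate numbers and the black bars give mean ± SD of 3 arrays. Pkm, Hk2 and Pklr sit higher in NC+CCl4 than in NC, Pck1 sits lower, and replicate 3 of shLFAR1+CCl4 lies within or above the NC+CCl4 range for Slc2a1, Pklr, Pkm and Hk2 but near the oil-treated groups for Pck1.

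Among the transporters, neither passed the test. Slc2a2, the low-affinity glucose transporter of hepatocytes, was at 11.71, 11.48 and 11.71 in NC, at 11.47, 11.32 and 11.66 in NC+CCl4, at 11.83, 11.84 and 11.76 in shLFAR1 and at 11.42, 11.12 and 11.85 in shLFAR1+CCl4. Its 4 groups differed little, and the NC and NC+CCl4 arrays overlapped. The difference NC+CCl4 minus NC was -0.15 ± 0.15 (SE, 95% interval -0.47 to 0.18; adjusted p = 0.579, limma).

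Slc2a1, the widely expressed transporter, was at 6.48, 5.97 and 6.09 in NC and at 7.22, 6.86 and 6.37 in NC+CCl4. The lowest NC+CCl4 array thus lay inside the NC range. In shLFAR1 it was at 6.34, 6.53 and 6.36, and in shLFAR1+CCl4 at 6.37, 6.40 and 7.11, with the third replicate alone above the others. The change NC+CCl4 minus NC was 0.63 ± 0.23 (SE) and missed the threshold (adjusted p = 0.101, limma). Its other probe sets gave 0.26 and 1.08, the last of which passed when all probe sets were tested (adjusted p = 0.0431, limma), and without NC+CCl4 replicate 3 the gene itself passed at 0.85 (adjusted p = 0.0395, limma).

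Hk2, which phosphorylates glucose and is low in normal hepatocytes, was at 4.46, 4.37 and 4.90 in NC and at 5.26, 5.70 and 5.49 in NC+CCl4. All NC+CCl4 arrays lay above all NC arrays. The change was 0.91 ± 0.21 (SE; adjusted p = 0.0135, limma). In shLFAR1 the level was 4.81, 4.67 and 4.81, and in shLFAR1+CCl4 it was 5.03, 4.88 and 5.70. All shLFAR1+CCl4 arrays were above the shLFAR1 arrays, but the difference of the means, 0.44 ± 0.21 (SE), did not pass (adjusted p = 0.476, limma). The mean level of Hk2 over all arrays was at the 42.1 percentile of all genes, and the values carry no detection calls, so the share of background in it was not tested. Its call in NC+CCl4 against NC was lost without NC replicate 1 (adjusted p = 0.0575, limma) and without NC replicate 2 (adjusted p = 0.0616, limma).

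Pfkl, the liver subunit of phosphofructokinase, which commits glucose to glycolysis, was at 6.77, 6.94 and 6.52 in NC and at 7.39, 6.96 and 6.81 in NC+CCl4. The groups overlapped and the change of 0.31 ± 0.18 (SE) did not pass (adjusted p = 0.302, limma). In shLFAR1 it was at 6.64, 6.84 and 6.84 and in shLFAR1+CCl4 at 6.82, 6.51 and 7.09. The means of the 4 groups lay within 6.74 to 7.05.

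Pklr, the liver pyruvate kinase that makes pyruvate in hepatocytes, was at 7.85, 8.18 and 7.99 in NC. It was at 9.59, 8.40 and 8.83 in NC+CCl4, all above NC but spread over more than 1 log2 unit, with replicate 1 the highest. The change was 0.94 ± 0.26 (SE; adjusted p = 0.0354, limma). The other 2 probe sets of Pklr changed by 0.47 ± 0.21 and 0.32 ± 0.16, and neither passed (adjusted p = 0.204 and 0.252, limma). In those probe sets NC+CCl4 replicate 1 stood at 7.89 and 7.43, within the range of the NC arrays in each (7.32 to 7.99 and 7.11 to 7.44), so its high reading was seen in the brightest probe set only. Without this array the change was 0.61 (adjusted p = 0.0947, limma), and without both arrays that stand apart it was again 0.61 but passed (adjusted p = 0.0114, limma). The call was also lost without any single NC array, without NC+CCl4 replicate 3 and without any single shLFAR1 array, at adjusted p of 0.0512 to 0.116 (limma). In shLFAR1 Pklr was at 8.32, 8.23 and 8.15, and in shLFAR1+CCl4 at 8.27, 8.24 and 9.01, where replicate 3 alone exceeded the oil-treated arrays.

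Pkm, the pyruvate kinase of most non-hepatocyte cells, had the largest change of the 9 genes in the probe sets used. It was at 5.16, 5.32 and 5.39 in NC and at 6.99, 7.52 and 6.30 in NC+CCl4. Every NC+CCl4 array was above every array of both oil-treated groups, since shLFAR1 was at 5.28, 5.46 and 5.31. The change was 1.65 ± 0.43 (SE; adjusted p = 0.0251, limma). In shLFAR1+CCl4 it was at 5.49 and 5.34 in replicates 1 and 2 and at 7.33 in replicate 3. The first pair lay at the level of the oil-treated arrays, and the third lay inside the NC+CCl4 range, so that the group mean of 6.06 ± 1.11 (SD, n = 3) describes none of its arrays. The call of Pkm in NC+CCl4 against NC was lost without NC replicate 1, 2 or 3 and without NC+CCl4 replicate 1 or 2, at adjusted p of 0.0601 to 0.082 (limma), with the variance estimate made robust to outliers (adjusted p = 0.0538, limma). Over 26 other settings the change lay between 1.35 and 1.96. A single probe set read Pkm, so its splice forms were not separated.

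Pck1, the rate-controlling enzyme of gluconeogenesis, was at 12.47, 12.30 and 12.78 in NC and at 10.62, 11.83 and 10.44 in NC+CCl4. All NC+CCl4 arrays lay below all NC and shLFAR1 arrays, and replicate 2 fell least. In shLFAR1 it was at 12.37, 12.24 and 12.69, and in shLFAR1+CCl4 at 11.86, 11.82 and 12.45. The first pair of these lay close to NC+CCl4 replicate 2, and the third lay in the oil-treated range. The change NC+CCl4 minus NC was -1.55 ± 0.30 (SE; adjusted p = 0.00577, limma). It passed without any single array and under all but 1 of 26 other settings, with changes between -2.31 and -1.27. Of the other probe sets of Pck1, one fell by 2.31 ± 0.46 (adjusted p = 0.00879, limma), from 12.02, 11.99 and 12.60 to 8.71, 11.20 and 9.78. The third had a mean of 2.37 over all arrays, near the lowest values of the table, and changed by 0.06.

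Fbp1, which removes a phosphate from fructose 1,6-bisphosphate on the way to glucose, was at 13.28, 13.28 and 13.31 in NC, at 13.38, 13.51 and 13.49 in NC+CCl4, at 13.42, 13.34 and 13.41 in shLFAR1 and at 13.39, 13.41 and 13.55 in shLFAR1+CCl4. The NC arrays were below all 9 others, by small amounts. The change NC+CCl4 minus NC was 0.17 ± 0.06 (SE) and did not pass (adjusted p = 0.0755, limma), although with the replicate number as a block in the CCl4 groups it did (adjusted p = 0.0242, limma). Fbp1 is among the brightest genes of the array, at the 99.8 percentile of mean level.

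Ppargc1a was at 7.48, 6.38 and 7.22 in NC, at 7.10, 6.81 and 7.02 in NC+CCl4, at 6.88, 7.10 and 6.68 in shLFAR1 and at 7.05, 6.71 and 7.95 in shLFAR1+CCl4. The NC arrays alone spanned more than the 4 group means, and the groups overlapped. The change NC+CCl4 minus NC was -0.05 ± 0.31 (SE, 95% interval -0.72 to 0.62; adjusted p = 0.94, limma). Its 5 probe sets gave changes between -0.35 and 0.09.

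**Figure D2:**
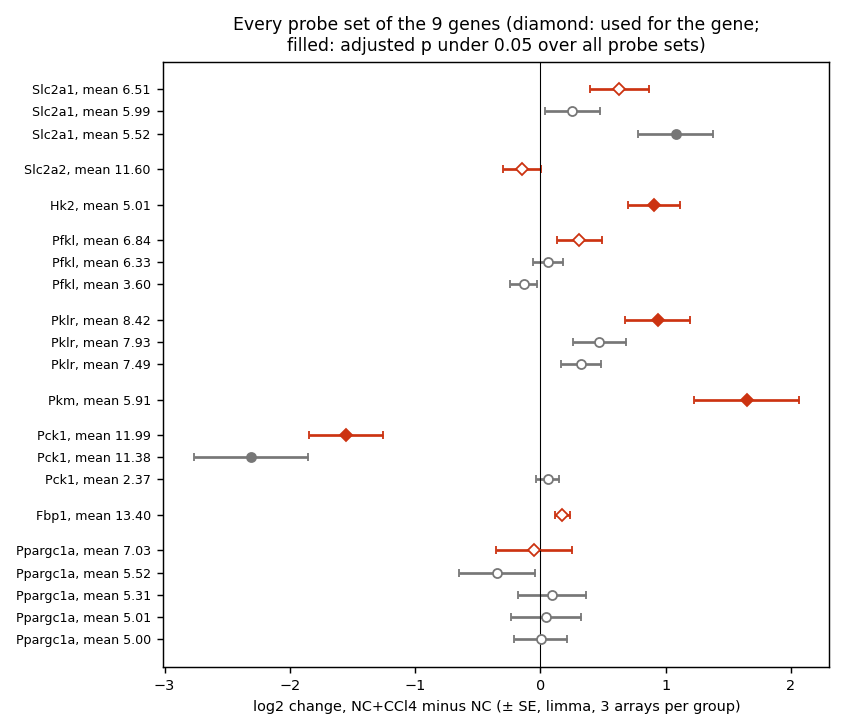
Log2 change NC+CCl4 minus NC with its standard error (x axis) for every one of the 21 probe sets of the 9 genes, listed with the mean log2 level over 12 arrays. Both bright Pck1 probe sets fell, by 1.55 and 2.31, and of the 3 Pklr probe sets only the brightest passed.

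The knockdown virus was compared with the control virus in CCl4-treated livers. None of the 9 genes was called, where 0.291% of all genes were. At an unadjusted p under 0.05 (limma) the only gene of the 9 was Pck1, beside 2579 of all 18193 genes. Pck1 was higher in shLFAR1+CCl4 by 1.08 ± 0.30 (SE, 95% interval 0.43 to 1.73; unadjusted p = 0.00336, adjusted p = 0.125, limma), but its arrays overlapped, since NC+CCl4 replicate 2 at 11.83 lay just above shLFAR1+CCl4 replicate 2 at 11.82. Without NC+CCl4 replicate 2 the difference was 1.52 (adjusted p = 0.00276, limma), whereas without both arrays that stand apart it was 0.71 (adjusted p = 0.257, limma). Pkm differed by -0.88 ± 0.43 (SE; adjusted p = 0.385, limma), and without shLFAR1+CCl4 replicate 3 by -1.52 (adjusted p = 0.00405, limma). Each of these calls thus depended on leaving out a single array. Without both arrays that stand apart, Pkm was again called, at -1.49 (adjusted p = 0.0104, limma). Over the whole array, calls rose from 53 to 546 without NC+CCl4 replicate 2 and to 1327 without shLFAR1+CCl4 replicate 3. Without both arrays that stand apart they numbered 1541.

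The other 7 genes differed between the CCl4-treated groups by -0.43 (Pklr) to 0.26 (Ppargc1a), with adjusted p of 0.511 to 0.972 (limma). The other probe sets of Pklr gave -0.03 and 0.045, and those of Ppargc1a gave 0.42 to 0.62, none of which passed. For Hk2 the difference was -0.28 (95% interval -0.73 to 0.17) and for Slc2a1 it was -0.19 (95% interval -0.69 to 0.32). For no gene of the 9 were the arrays of these groups free of overlap, as against 12.3% of all genes. The median over the 9 was -0.19, beside 0.01 over all genes. This comparison and NC+CCl4 against NC share the NC+CCl4 arrays.

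Under the knockdown virus, CCl4 gave no call among the 9 genes in shLFAR1+CCl4 against shLFAR1, where 0.407% of all genes were called. Pkm was 0.70 ± 0.43 higher, Hk2 0.44 ± 0.21 higher and Pck1 0.39 ± 0.30 lower on the log2 scale (SE; adjusted p of 0.6, 0.476 and 0.707, limma). Without shLFAR1+CCl4 replicate 3 the differences were 0.07 for Pkm, 0.19 for Hk2 and -0.59 for Pck1 (adjusted p of 1, 0.928 and 0.742, limma), so the value of Pkm came almost wholly from that array. Slc2a2 differed by -0.35 ± 0.15, with an unadjusted p of 0.0403 and an adjusted p of 0.435 (limma). Among the 9 genes Hk2 alone had arrays without overlap, compared with 20.1% of all genes.

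**Figure D3:**
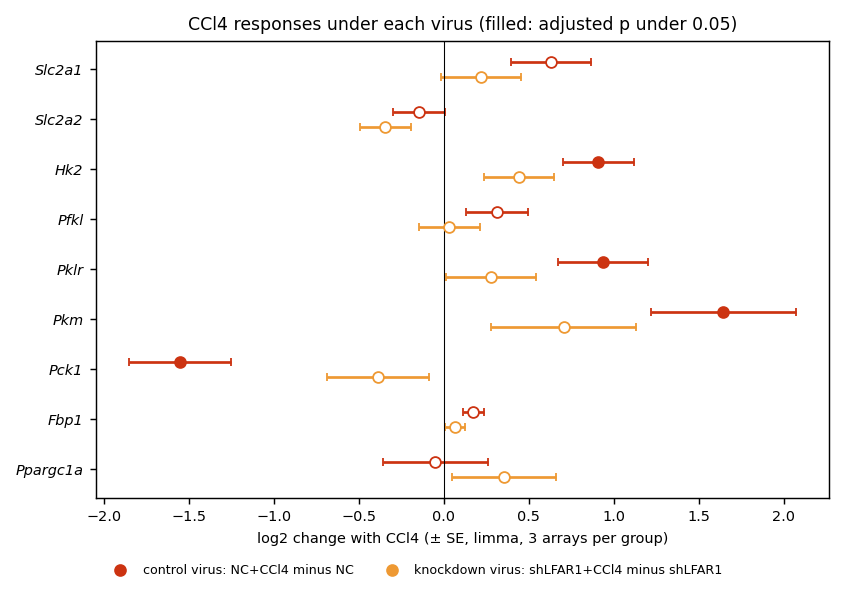
Log2 change with CCl4 and its standard error (x axis) for each of the 9 genes, under the control virus (NC+CCl4 minus NC, red) and under the knockdown virus (shLFAR1+CCl4 minus shLFAR1, orange), with filled points at an adjusted p under 0.05. The 4 filled points are Pkm, Pklr, Hk2 and Pck1 under the control virus, and no difference between the responses passed the test.

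The difference between the CCl4 responses was tested as an interaction, and none of the 9 genes passed, with 0.022% of all genes called. It was 1.16 ± 0.42 for Pck1 (SE; unadjusted p = 0.0171, adjusted p = 0.414, limma), -0.94 ± 0.61 for Pkm (adjusted p = 0.669, limma) and -0.66 ± 0.37 for Pklr (adjusted p = 0.611, limma). The other probe sets of Pklr gave smaller differences, of -0.17 and -0.10. Pck1 passed without NC+CCl4 replicate 2, at 1.6 (adjusted p = 0.0235, limma), and Pkm without shLFAR1+CCl4 replicate 3, at -1.58 (adjusted p = 0.0308, limma). Without both arrays that stand apart Pkm passed at -1.55 (adjusted p = 0.045, limma) and Pck1 was at 0.79 (adjusted p = 0.389, limma). Over the whole array, calls of this difference rose from 4 to 164, 583 and 776 in these settings, in the same order.

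In oil-treated livers the knockdown virus, compared with the control virus, gave no call in shLFAR1 against NC, among the 9 genes or among all genes (0%, limma). At an unadjusted p under 0.05 there were 504 genes in all, and the fit to these groups alone called 3. The differences of the 9 genes lay between -0.14 (Ppargc1a) and 0.23 (Pklr). Arrays without overlap were found for Fbp1 and Slc2a2, whose group means differed by 0.10 and 0.18, and for 10.8% of all genes.

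Pkm and Pck1 changed in opposite directions between NC and NC+CCl4 but were high in the same arrays within each CCl4-treated group. The oil-treated groups did not share this. In shLFAR1, replicate 2 had the highest Pkm of its group, at 5.46, and the lowest Pck1, at 12.24. NC+CCl4 replicate 2 had the highest Pkm of all arrays, at 7.52, and also the highest Pck1 of its group, at 11.83. The shLFAR1+CCl4 array of replicate 3 had the second highest Pkm and a Pck1 of 12.45. Replicates 1 and 2 of shLFAR1+CCl4 had Pkm in or near the range of the oil-treated groups and Pck1 below it. Over the 12 arrays, which share groups of treatment, Pearson's r between Pkm and Pck1 was -0.45, and after subtraction of the group means it was 0.70. Between Pkm and Hk2 it was 0.89 over the arrays and 0.75 within groups, and between Pklr and Pck1 it was -0.71 and -0.29. These values are descriptions of 12 arrays.

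**Figure D4:**
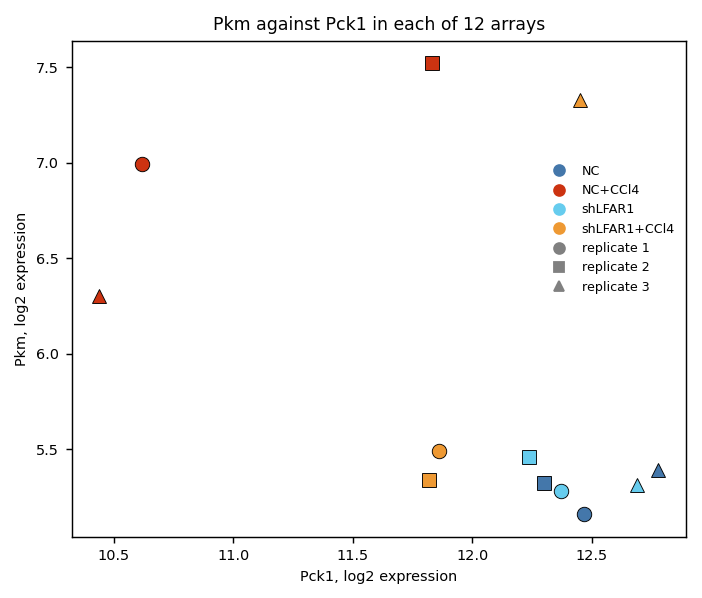
Log2 expression of Pkm (y axis) against Pck1 (x axis) in each of the 12 arrays, coloured by group with a symbol for the replicate number. Both oil-treated groups share the lower right corner, NC+CCl4 replicates 1 and 3 have high Pkm with low Pck1, and NC+CCl4 replicate 2 and shLFAR1+CCl4 replicate 3 have Pkm of 7.52 and 7.33 with Pck1 of 11.83 and 12.45.

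Several of the lists of markers for other liver cells were higher in the arrays with high Pkm and Hk2, though not all. The mean of 14 macrophage markers, relative to NC, was 1.70, 2.35 and 1.58 in NC+CCl4 and 0.75, 0.72 and 2.06 in shLFAR1+CCl4. That of 12 stellate cell and myofibroblast markers was 1.87, 1.95 and 1.82 in NC+CCl4 and 0.44, 0.57 and 1.71 in shLFAR1+CCl4. In NC+CCl4 against NC, 9 of 14 macrophage markers, 9 of 12 stellate cell markers and 10 of 11 proliferation markers were called higher. Of all genes, 7.66% were called higher in that comparison. On the log2 scale the summed macrophage level was 10.98 to 11.38 in NC, 13.13 to 13.98 in NC+CCl4, 11.20 to 11.28 in shLFAR1 and 11.90 to 13.63 in shLFAR1+CCl4. The summed stellate cell level was 11.14 to 11.29, 13.34 to 13.58, 10.92 to 11.52 and 11.64 to 13.11 in the same order. The proliferation markers, by their mean relative to NC, were at 3.70, 1.41 and 3.69 in NC+CCl4 and at 0.05, -0.03 and 2.04 in shLFAR1+CCl4, so that NC+CCl4 replicate 2, with the highest Pkm and Hk2 of its group, was the lowest of its group. The neutrophil markers were at 0.77, 0.86 and 1.20 in NC+CCl4 and at 0.92, 1.20 and 0.62 in shLFAR1+CCl4, where replicate 3 was the lowest. None of the endothelial or cholangiocyte markers was called in NC+CCl4 against NC.

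The 12 hepatocyte markers measured did not follow Pck1. Their mean relative to NC was -0.03, -0.02 and 0.11 in NC+CCl4 and -0.09, -0.12 and 0.12 in shLFAR1+CCl4, and their summed log2 level stayed within 16.99 to 17.11 in all arrays. In NC+CCl4 against NC, 2 of them were called higher and 1 lower, beside 7.66% and 5.41% of all genes. The part of cell composition in the changes of Pkm, Hk2 and Pck1 was not tested.

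Among genes with a mean level above the median of all genes, those most like each called gene over the 12 arrays were found by Pearson's r. For Pkm they were Col5a1 (0.985), a fibrillar collagen chain, Pld3 (0.981), a lysosomal nuclease, and Abcg1 (0.980), a cholesterol exporter. For Hk2 they were Msn (0.955), Aldh1b1 (0.951) and Cd300a (0.948), an inhibitory receptor of leukocytes. For Pck1 they were Herpud1 (0.958), Ppara (0.954), a nuclear receptor of fatty acid oxidation, and Abcg8 (0.937), a sterol transporter. For Pklr they were Eftud2 (0.962), Dbndd2 (0.955) and Ggct (0.954). These likenesses were picked as the highest among those brighter genes and carry no test. Genes below the median level were not compared.

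The remaining steps of glucose metabolism were read from 8 lists of genes that leave out the 9 above. Counts of calls in NC+CCl4 against NC are to be read against 7.66% of all genes called higher and 5.41% lower. Of 14 further glycolysis enzymes, 4 were higher in NC+CCl4 than in NC and none was lower, with a median change of 0.28; 5 were called without both arrays that stand apart and 1 without NC replicate 1 or NC replicate 2. Pfkp, the platelet form of phosphofructokinase, was at 4.62, 4.84 and 4.46 in NC and at 5.79, 5.70 and 5.75 in NC+CCl4. The groups were well apart, by 1.11 ± 0.22 (SE; adjusted p = 0.00693, limma). Hk1, the hexokinase of most tissues, rose by 0.63, Pgam1 (phosphoglycerate mutase) by 0.32 and Ldha (lactate dehydrogenase A) by 0.28. Each of the calls of Hk1, Pgam1 and Ldha was lost without some single arrays, NC replicate 1 among them (adjusted p of 0.0741, 0.101 and 0.0952, limma), and that of Ldha also with the replicate number as a block in all groups (adjusted p = 0.0508, limma). With the mean of all probe sets Pfkp changed by 0.28 (adjusted p = 0.16, limma).

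Of 14 further genes of gluconeogenesis and glucose output, only Pck2 passed, the mitochondrial counterpart of Pck1. It was at 5.61, 5.45 and 5.33 in NC and at 7.07, 6.41 and 6.29 in NC+CCl4, where Pck1 was lower. The change of Pck2 was 1.12 ± 0.24 (SE; adjusted p = 0.00903, limma). The median of the list was 0.07. G6pc, glucose-6-phosphatase, which releases free glucose, changed by -0.53 ± 0.26 (adjusted p = 0.224, limma) and Pcx, pyruvate carboxylase, by 0.03 ± 0.12 (adjusted p = 0.92, limma), both chosen after their values were seen.

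Of 5 genes that control the entry of glucose into glycolysis, mainly through fructose 2,6-bisphosphate, 1 was higher and 1 lower. Pfkfb3, whose product fructose 2,6-bisphosphate speeds glycolysis, was at 6.95, 6.0 and 6.05 in NC and at 4.87, 4.84 and 4.71 in NC+CCl4. The arrays did not overlap, and the change was -1.53 (adjusted p = 0.00206, limma). Pfkfb3 was also at 5.42, 5.08 and 5.37 in shLFAR1 and at 4.51, 4.56 and 5.09 in shLFAR1+CCl4, all below every NC array. The difference shLFAR1 minus NC was -1.05 ± 0.23 (SE; unadjusted p = 0.000694) and did not pass over all genes (adjusted p = 1, limma). Pfkfb4 rose by 0.81 (adjusted p = 0.00531, limma).

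Of 16 genes of pyruvate and lactate fate, 3 were higher and 2 lower. Pdk4, a kinase that shuts pyruvate dehydrogenase and spares glucose, was at 5.08, 5.93 and 5.42 in NC, at 8.84, 7.92 and 7.32 in NC+CCl4, at 4.49, 5.84 and 5.33 in shLFAR1 and at 6.47, 6.07 and 6.67 in shLFAR1+CCl4. Its rise of 2.55 ± 0.39 in NC+CCl4 was the largest of all genes in the 8 lists (adjusted p = 0.00206, limma). Pdk3, of the same kinase family, rose by 0.59 and Slc16a1, a lactate and pyruvate carrier, by 0.57 (adjusted p = 0.0112 and 0.0108, limma). Pdk1 fell by 0.43 at the edge of the threshold (adjusted p = 0.049, limma), and its most variable probe set gave 0.16 in the opposite direction (adjusted p = 0.64, limma). Pdk1 also lost its call with the replicate number as a block in all groups (adjusted p = 0.0579, limma).

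Of 9 further hexose transporters only Slc2a5, a fructose transporter, passed, lower by 0.97 ± 0.18 (SE; adjusted p = 0.00448, limma). The glycogen enzymes moved both ways, with 3 of 16 higher, 2 lower and a median of -0.01. Pygb, the brain form of glycogen phosphorylase, was at 5.35, 5.57 and 5.25 in NC and at 7.15, 7.05 and 7.46 in NC+CCl4, a rise of 1.83 ± 0.28 (adjusted p = 0.00207, limma). Gyg, glycogenin, which primes glycogen, rose by 1.20 and Pgm2 by 0.81. Ugp2, which makes the UDP-glucose used for glycogen, went from 12.30, 12.15 and 12.41 to 11.58, 11.45 and 11.62. That fall of 0.74 ± 0.09 (SE) had the smallest p of the genes named here (adjusted p = 0.000621, limma). The liver forms Gys2 and Pygl, chosen after their values were seen, changed by -0.03 and 0.01.

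In the pentose phosphate and fructose list, 1 of 9 genes passed, with a list median of 0.30. It was Pgd, phosphogluconate dehydrogenase, which yields NADPH, at 8.39, 8.52 and 8.56 in NC and 10.34, 9.78 and 10.26 in NC+CCl4. The rise was 1.63 ± 0.27 (SE; adjusted p = 0.00299, limma).

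Of 27 genes of transcriptional and hormonal control, none was higher and 2 were lower, and 22 of 27 had a change below 0, with a median of -0.23 beside -0.05 over all genes. The 2 calls of 27 are to be read against the 5.41% of all genes called as lower. Insr, the insulin receptor, was at 9.48, 9.41 and 9.35 in NC, at 8.67, 8.91 and 8.64 in NC+CCl4, at 9.34, 9.12 and 9.34 in shLFAR1 and at 9.63, 9.52 and 9.31 in shLFAR1+CCl4. The NC+CCl4 arrays were below all others. Insr fell by 0.67 ± 0.11 (SE; adjusted p = 0.00326, limma). Sirt1, a deacetylase known to act on PGC-1α, fell by 0.75 ± 0.18 (SE; adjusted p = 0.0158, limma), a call lost without NC replicate 1 (adjusted p = 0.0746, limma) or NC+CCl4 replicate 3 (adjusted p = 0.055, limma).

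**Figure D5:**
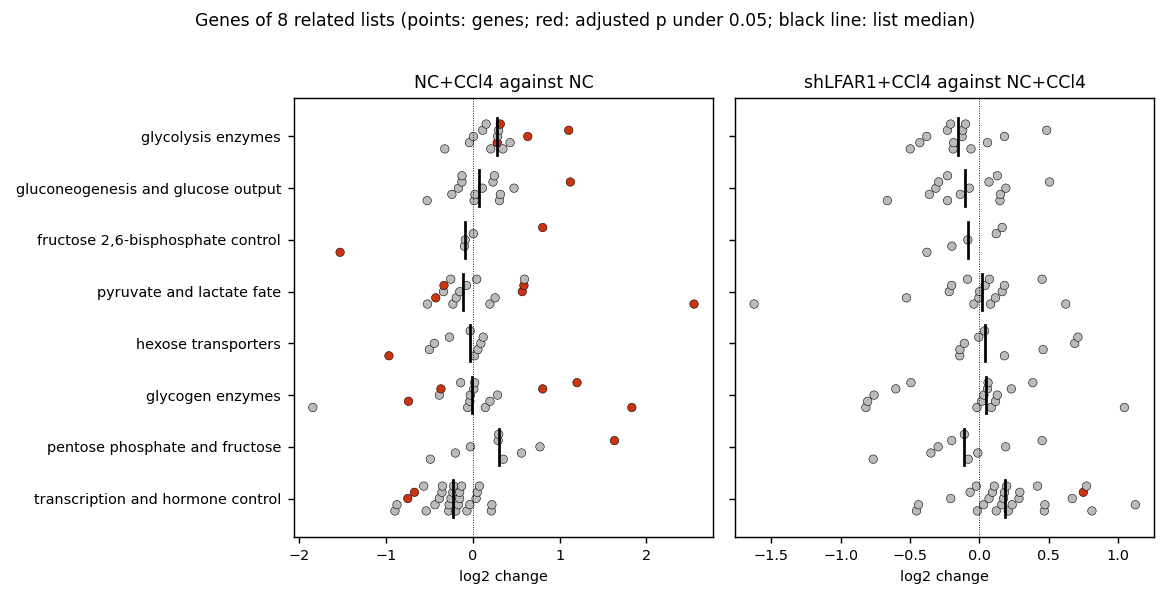
Log2 change (x axis) of each gene in 8 lists around glucose metabolism, for NC+CCl4 against NC (left) and shLFAR1+CCl4 against NC+CCl4 (right), with genes at an adjusted p under 0.05 in red and the list median as a black line. On the right only Insr is red, at 0.75.

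Between the CCl4-treated groups, Insr was the only gene of the 8 lists that passed, higher in shLFAR1+CCl4 than in NC+CCl4 by 0.75 ± 0.11 (SE; adjusted p = 0.0188, limma), where 0.176% of all genes were called as higher. The call was lost without NC+CCl4 replicate 1 (adjusted p = 0.058, limma) or 3 (adjusted p = 0.0576, limma), without shLFAR1+CCl4 replicate 1 (adjusted p = 0.114, limma) or 2 (adjusted p = 0.0983, limma) and with the mean of all its probe sets (0.55; adjusted p = 0.109, limma). In the transcription and hormone list 21 of 27 genes had a difference above 0, with a median of 0.18.

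With the replicate number as a block in the CCl4 groups, 6 more of the genes named from the lists passed in that comparison. The listed genes that are not named were not examined under this block. The block was picked from correlations in these same data, so the calls gained with it are no separate support for a difference. Pdk4 was lower in shLFAR1+CCl4 by 1.63, Slc16a1 by 0.53 and Pygb by 0.82 on the log2 scale (adjusted p of 0.0349, 0.0296 and 0.0466, limma). Slc2a5 was higher by 0.71, Ugp2 by 0.39 and Sirt1 by 0.77 (adjusted p of 0.0393, 0.0237 and 0.0195, limma). Without the block their adjusted p lay between 0.0862 and 0.205 (limma). The same block raised the number of called genes on the whole array from 53 to 798, called Pygb in shLFAR1+CCl4 against shLFAR1 (1.03; adjusted p = 0.0314, limma), and called none of the 9 genes in either comparison.

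Without shLFAR1+CCl4 replicate 3, calls on the whole array rose from 53 to 1327, and more of the genes named here passed between the CCl4-treated groups. Most of these genes were named for their change in NC+CCl4 against NC, which shares the NC+CCl4 arrays. On the first principal component, the array left out was the one of its group that lay among the NC+CCl4 arrays. The gain in calls is therefore no separate support for a difference. Lower in shLFAR1+CCl4 were Pfkp at -0.82, Pck2 at -0.95, Gyg at -1.15, Pygb at -1.21, Pgd at -1.17, Pdk4 at -1.76 and Pgm2 at -0.64 (adjusted p of 0.000667 to 0.0376, limma). Higher were Sirt1 at 0.93, Pdk1 at 0.53 and Ugp2 at 0.41 (adjusted p of 0.00671 to 0.0373, limma). In that array Pfkp stood at 5.89, Pck2 at 6.49, Gyg at 8.03, Pygb at 7.18 and Pgd at 10.17, each within or above the NC+CCl4 range. In the other 2 arrays of the group they were at 4.76 and 5.09, 5.71 and 5.57, 7.0 and 6.73, 5.88 and 6.15, and 8.86 and 9.04, all below every NC+CCl4 array. In replicate 3, Pdk4 (6.67), Pgm2 (6.09), Ugp2 (11.88), Sirt1 (6.49) and Pdk1 (8.41) instead lay outside the NC+CCl4 range. They lay on the side of the other 2 arrays of the group, Pgm2 and Pdk1 only just.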

How the data were processed

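Liver RNA was measured on 12 arrays in 4 groups of 3, taken from the labels with their replicate numbers. The deposited values are log2 expression per probe set, summarized and normalized by the authors before deposition with a method not given in the sources used here. They lay between 1.81 and 14.52, with array means of 5.10 to 5.11, carry no detection calls and were used without further scaling. Precision is limited by the number of arrays. The platform annotation gave 1 symbol to 34958 of 45101 probe sets, several to 932 and none to 9211. Control probe sets (64) were left out, and 9010 of 18193 genes had at least 2 probe sets.

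A linear model of the 4 groups (8 residual degrees of freedom) was fitted with limma 3.58.1 in R 4.3.3 (lmFit, eBayes with an intensity trend), two-sided, adjusted by Benjamini-Hochberg over 18193 genes and called under 0.05. It was tested on simulated data. Spread was pooled over groups, whose median SD over genes was 0.131 in NC, 0.172 in NC+CCl4, 0.106 in shLFAR1 and 0.143 in shLFAR1+CCl4. Figures and promoter searches were made in Python 3.11.15 (pandas 2.3.3, matplotlib 3.10.9).

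The 9 genes and all lists were chosen with earlier results of these data known. From each list the called genes with the largest change in NC+CCl4 against NC were named, up to 4, and up to 2 called in shLFAR1+CCl4 against NC+CCl4. Listed genes that had no probe set with that single symbol were not analysed here.

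Same-numbered arrays of NC+CCl4 and shLFAR1+CCl4 correlated in their deviations from the group means at 0.126, 0.229 and 0.192. Other numbers of these groups lay at -0.234 to 0.093. The replicate number was therefore tried as a block, a pairing for which the labels give no reason. Arrays of NC and NC+CCl4 with different numbers reached 0.188. Because the block was picked from these same data, calls gained with it are no separate support for a difference. The p-values given are without this block unless it is named. Alternatives covered the variance model, array weights, normalization, low genes, the probe set per gene, the arrays fitted, the replicate block and the Student test named by the study, at a fold over 1.6.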

Additional observations from a re-analysis of the deposited data

Results flagged for a closer look

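The 9 genes and the genes named from the lists were searched for CCl4 responses in opposite directions under the viruses in every array. The search found 2, Insr and Sirt1, both from the transcription and hormone list. The other listed genes were not searched, and Nr3c1 and Cebpb of the same list and Slc2a9 of the hexose transporters also had this pattern. Insr and Sirt1 had been named for their change in NC+CCl4 against NC, and Insr also for that in shLFAR1+CCl4 against NC+CCl4. Those values enter the difference between the responses, so its p is no separate support for the pattern. Insr was below the NC mean in all 3 NC+CCl4 arrays and above the shLFAR1 mean in all 3 shLFAR1+CCl4 arrays, and the responses differed by 0.89 ± 0.16 (SE; unadjusted p = 0.000112, adjusted p = 0.12, limma). With the replicate number as a block in the CCl4 groups the adjusted p was 0.0224 (limma), it was 0.0227 once NC+CCl4 replicate 2 was left out and 0.00685 once shLFAR1+CCl4 replicate 3 was (limma). Sirt1 showed the same pattern, at 7.04, 6.59 and 6.73 in NC, 5.89, 6.32 and 5.91 in NC+CCl4, 6.45, 6.30 and 6.61 in shLFAR1 and 7.01, 6.93 and 6.49 in shLFAR1+CCl4. Its responses differed by 1.11 ± 0.25 (SE; unadjusted p = 0.000768, adjusted p = 0.248, limma), with 0.0486 under the same block, 0.0419 when NC+CCl4 replicate 2 was left out and 0.0145 when shLFAR1+CCl4 replicate 3 was (limma). In these settings, in the same order, calls on the whole array rose from 4 to 146, 164 and 583. Passing there was thus not particular to Insr and Sirt1. Groups of 3 arrays were too small for a test of single outlying arrays.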

How the results depend on the processing

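Of the 9 genes, 4 were called in NC+CCl4 against NC. The Student test adjusted over all genes called 0 of them and 280 of all genes, against 2378 with limma, and leaving out single arrays gave between 1 (without NC replicate 1 or 2) and 6 (without shLFAR1+CCl4 replicate 3). The study's threshold, an unadjusted p under 0.05 and a fold over 1.6, called 1262 of all genes with the Student test. Pkm, Hk2 and Pck1 passed it, and Pklr did not (unadjusted p = 0.0609, Student test). In shLFAR1+CCl4 against NC+CCl4 and in the difference between the CCl4 responses, 0 were called. Leaving out single arrays gave 0 to 1 in both, and leaving out both arrays that stand apart gave 1 in both. In the other 2 comparisons 0 of the 9 were called under every alternative run. With the replicate number as a block in all groups 4 of the 9 were called in NC+CCl4 against NC, and with the block in the CCl4 groups 5, with Fbp1 added. The block changed no other call of the 9. Over all comparisons and settings, 1101 values of the 9 genes kept their side of the threshold, of which 1069 kept their direction and 32, none of them called, changed sign, while 22 lost the call and 15 gained it. Called genes on the whole array in shLFAR1+CCl4 against NC+CCl4 numbered 53, 0 when only these groups were fitted, 1327 without shLFAR1+CCl4 replicate 3 and 1541 without both arrays. The most variable probe set of Pdk1 gave 0.16, opposite to its fall, in NC+CCl4 against NC. Hk2 was left out by the filter on low genes. The cause of these shifts was not tested.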
